A study of Mus musculus with 6 samples.

Results

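The replication-dependent histone genes were described in RAW264.7, a cell line of mouse macrophages. The genes were selected on their symbol, which begins with Hist1h, Hist2h, Hist3h or Hist4h in the deposited table, and on having 10 or more counts in at least 1 library. Of its 24062 genes, 68 had such a symbol, and 33 of these passed. They were 4 of 6 H1 genes, 7 of 18 H2A genes, 10 of 19 H2B genes, 5 of 12 H3 genes and 7 of 13 H4 genes. By cluster, 24 of 54 Hist1 genes on chromosome 13, 8 of 10 Hist2 genes on chromosome 3, 1 of 3 Hist3 genes on chromosome 11 and 0 of 1 Hist4 genes on chromosome 6 passed, all in build mm10 (GRCm38). Near the threshold, Hist1h3a reached 11 counts in its highest library and Hist1h2ae 12, whereas Hist1h1a, Hist1h2bb, Hist1h2bf and Hist1h4d reached 8 and Hist1h4c reached 7.

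M0 cells were left unpolarized. M1 cells received LPS at 100 ng/mL with IFN-γ at 20 ng/mL for 24 h, and M2 cells received IL-4 at 20 ng/mL for 24 h. RM0, RM1 and RM2 were the same 3 states given 10 Gy of gamma radiation and kept for another 24 h, and the sources used here do not say whether the non-irradiated cells were kept as long. Each of the 6 conditions had 1 library, made from RNA pooled from 5 wells, so no pair of libraries has a replicate check and intervals below cover counting error only. Library totals ran from 17894937 to 18870516 counts. The labels name bone marrow as the tissue of this line. The 8 macrophage markers examined were counted in every library, with Lyz2 between 199329 and 580239 counts and Csf1r between 4855 and 14190. The 4 epithelial markers examined were at 0 in every library, and the 4 T cell markers summed to at most 1 count (Cd4). Summed counts per library were 1 to 4 for 3 B cell markers, all of Cd79a, 5 to 21 for 4 fibroblast markers, with Col1a1 at up to 11, and 17 to 56 for 3 endothelial markers, most of them of Pecam1 (11 to 47).

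Replication-dependent histones package newly made DNA, and their transcripts are normally abundant during S phase and scarce outside it. Unlike other messenger RNAs they usually end in a conserved stem-loop instead of a poly(A) tail. The stem-loop is bound by SLBP, and NPAT drives their transcription from clustered genes, many of them H2A and H2B pairs transcribed in opposite directions. Some of these genes are also known to give polyadenylated transcripts in cells that have left the cycle. The library protocol names both enrichment and depletion of messenger RNA without saying which was done, so how far transcripts without a poly(A) tail were captured cannot be told apart from their level.

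The stem-loops are shown for 5 genes that the results turn on, one or more from each of 4 classes, because this element sets these transcripts apart from others. They were read from the longest GENCODE M21 transcript, with the stem and loop in capitals and 5 bases on either side.
Hist1h1c: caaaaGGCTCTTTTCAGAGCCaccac
Hist2h2aa1: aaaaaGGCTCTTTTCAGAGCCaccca
Hist2h2ac: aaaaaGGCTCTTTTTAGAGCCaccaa
Hist1h2bk: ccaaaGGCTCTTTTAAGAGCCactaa
Hist1h4i: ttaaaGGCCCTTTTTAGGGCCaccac
A stem-loop was found in 26 of the 33 genes (78.8%) and in 60 of 18664 protein-coding genes (0.322%). Histone genes were not left out of the latter, so many of the 60 belong to this family. The 26 carried 6 different versions, and 17 of them carried that of Hist1h1c and Hist2h2aa1. The annotated transcript ran more than 100 bases past the stem-loop in 16 of the 26 and ended within 100 bases of it in the other 10. Hist1h1c ran 840 bases past it, and Hist2h2ac ended 57 bases after it. These lengths describe the GENCODE transcripts, and the deposited table lists a shorter span for some of these genes. For Hist1h1c it lists 725 bases where the GENCODE transcript has 1560. The lengths thus do not show that reads past the stem-loop were counted. The longest transcripts of Hist1h2bc, Hist1h2bq, Hist1h2br, Hist2h2be, Hist2h2bb, Hist1h4k and Hist1h1b held no match. Those of Hist2h2bb, Hist1h4k and Hist1h1b have 381, 312 and 743 bases, fewer than the listed spans of 493, 409 and 794. A missing match there does not show that the gene lacks a stem-loop.

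Promoter sequence is shown for the gene with the most counts, for the H4 gene with the most counts, and for the stretch between the start sites of the 3 divergent H2A and H2B pairs in which both genes passed. Sequences are from RefSeq (build GRCm38.p6), written 5′ to 3′ up to the start site of the gene named first. Capitals mark the letters TATAAA wherever they occur, CCAAT and the octamer ATGCAAAT, on either strand.
Hist1h1c, chr13:23738557-23738806, plus strand: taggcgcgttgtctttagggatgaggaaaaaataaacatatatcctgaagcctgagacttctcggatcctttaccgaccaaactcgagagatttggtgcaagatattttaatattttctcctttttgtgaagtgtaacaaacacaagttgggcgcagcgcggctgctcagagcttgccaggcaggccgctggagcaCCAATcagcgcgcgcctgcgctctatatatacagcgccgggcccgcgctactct
Hist1h4i, chr13:22041363-22041612, minus strand: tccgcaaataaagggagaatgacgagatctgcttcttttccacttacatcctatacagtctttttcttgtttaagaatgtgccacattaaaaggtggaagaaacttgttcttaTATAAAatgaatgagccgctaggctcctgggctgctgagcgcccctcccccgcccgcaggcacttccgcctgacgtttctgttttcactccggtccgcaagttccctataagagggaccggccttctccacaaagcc
Hist2h2ac and Hist2h2be, chr3:96220881-96221120, minus strand: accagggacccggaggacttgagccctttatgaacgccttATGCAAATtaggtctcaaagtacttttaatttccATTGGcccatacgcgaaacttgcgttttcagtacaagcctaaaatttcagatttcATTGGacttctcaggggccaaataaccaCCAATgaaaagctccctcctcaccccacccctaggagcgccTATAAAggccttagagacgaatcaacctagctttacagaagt
Hist1h2ac and Hist1h2bc, chr13:23683960-23684198, minus strand: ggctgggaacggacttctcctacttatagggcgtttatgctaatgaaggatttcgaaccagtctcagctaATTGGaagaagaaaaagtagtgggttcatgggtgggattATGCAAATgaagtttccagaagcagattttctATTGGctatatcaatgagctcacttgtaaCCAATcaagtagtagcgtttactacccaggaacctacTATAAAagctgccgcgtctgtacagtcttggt
Hist1h2bg and Hist1h2ae, chr13:23571221-23571399, plus strand: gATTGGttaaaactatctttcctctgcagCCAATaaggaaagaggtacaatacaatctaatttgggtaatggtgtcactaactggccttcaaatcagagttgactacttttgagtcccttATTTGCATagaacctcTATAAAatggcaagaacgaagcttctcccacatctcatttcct
RefSeq promoters were matched for 29 of the 33 genes, taken as 250 bases before to 50 after the start. The matched start lay 25616, 2072, 7573 and 595 bases from the listed start for Hist1h2bq, Hist1h2br, Hist2h3c2 and Hist2h2aa2. Some matches lie after the start, such as the only CCAAT of Hist2h3c1, at position 29. Windows of divergent neighbours overlap, so 1 site can count for both genes. TATAAA on either strand was in 16 of 29 (55.2%) against 14.2% of 27025 promoters of all genes. CCAAT was in 24 of 29 (82.8%) against 37.9%. It was in every matched H1, H2A, H2B and H3 promoter and in 1 of 6 H4 promoters. ATGCAAAT was in 7 of 29 (24.1%) against 1.75%, and these were 4 of 7 H2A and 3 of 8 H2B promoters. None of the 3 motifs contains another, and a match is a description of the sequence only.

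The M1 state was examined first. Histone transcripts made up a larger share of the M1 library than of the M0 library in all 5 classes. Counting genes with identical rows once, the 30 measurements summed to 4974, 24411 and 5009 counts in M0, M1 and M2 and 7799, 21832 and 7740 in their irradiated counterparts. Scaled by the trimmed mean of M-values (TMM) and expressed as CPM, counts per 1000000 of the scaled library size, the sums were 250.8, 1651 and 246.9 without irradiation and 398.0, 1309 and 390.1 with it. Both M1 libraries were thus above the other 4, and M0 and M2 were the lowest. The summed level was 6.58-fold higher in M1 than in M0 (log2 ratio 2.72, 95% counting interval 2.68 to 2.76) and 3.29-fold higher in RM1 than in RM0 (1.72, 1.68 to 1.76). Over all 68 genes, with no threshold, the log2 ratios were 2.71 and 1.72.

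By class, the log2 ratio of the summed level in M1 against M0 was 3.70 (3.43 to 3.97) for H4, 3.55 (3.41 to 3.69) for H2A, 3.08 (2.95 to 3.22) for H2B, 2.48 (2.43 to 2.53) for H1 and 1.71 (1.38 to 2.05) for H3. The intervals of H4 and H2A overlapped, and those of H2B, H1 and H3 lay apart from each other and below both. The H1 value rests on Hist1h1c, without which it was 1.23 (0.88 to 1.59) in M1 against M0 and 0.57 (0.29 to 0.84) in RM1 against RM0, below H3 but with overlapping intervals. In RM1 against RM0 the order was H4 at 2.32, H2B at 2.21, H2A at 2.00, H1 at 1.58 and H3 at 1.13. H2A fell below H2B there, with overlapping intervals (1.88 to 2.11 and 2.09 to 2.32).

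**Figure D1:**
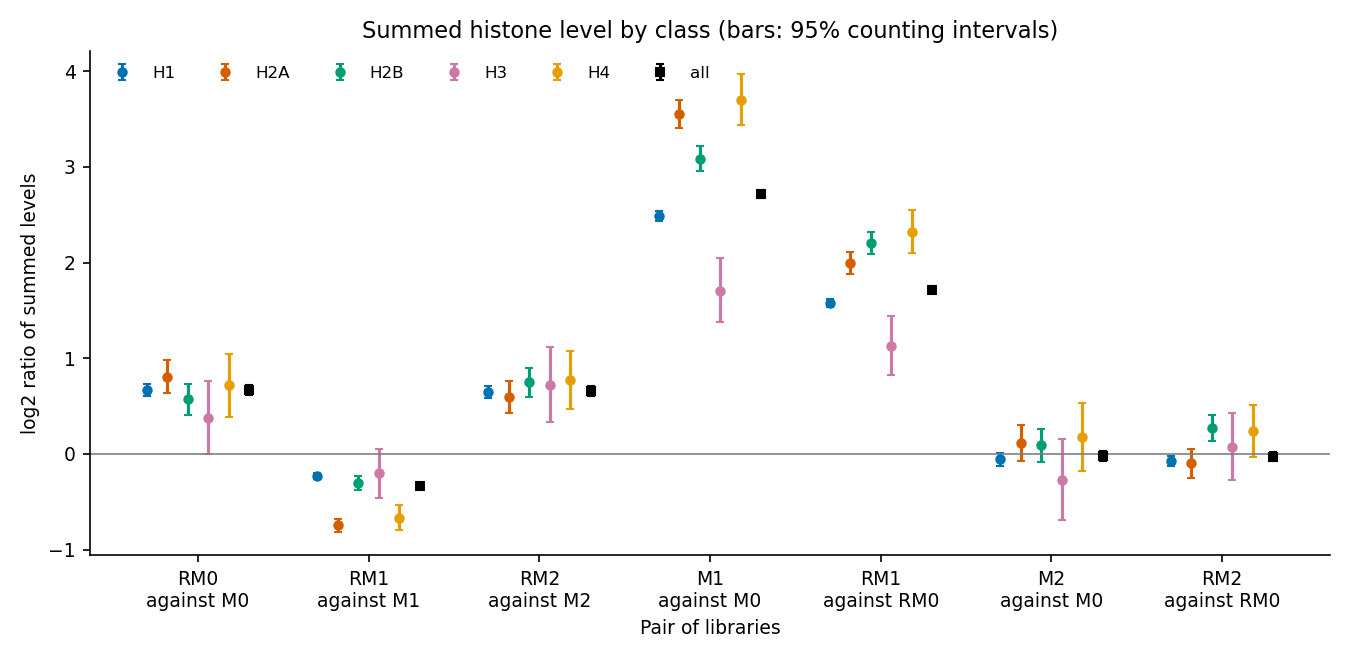
Log2 ratio of the summed histone level (vertical axis) in 7 pairs of libraries (horizontal axis), by histone class in colour and for all classes in black. Bars are 95% counting intervals from 1 library per condition; the M1 pairs lie far above 0, RM0 and RM2 lie above their controls near 0.67 and 0.66 for all classes, and RM1 lies below M1 at -0.33.

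Of the 33 genes, 31 had 10 or more counts in M0 or M1. A log2 fold change (TMM scaling, prior count 2) of at least 1 was reached by 28 of these, all higher in M1 (90.3%), whereas 9.37% of 11778 genes were that much higher and 13.3% that much lower. The median over the 33 was 2.51, against -0.03 over all genes with 10 or more counts in any library. In RM1 against RM0, 23 of 32 genes were at least 2-fold higher and 0 lower (71.9%), against 6.16% of all genes higher and 7.87% lower. Because 8 of the 33 passed the threshold of 10 only in M1 or RM1, their direction was fixed by that threshold. Among the other 25, 22 were at least 2-fold higher in M1 than in M0, with a median of 2.75, and 16 in RM1 than in RM0.

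A test of M1 against M0 across the irradiated and non-irradiated libraries (edgeR quasi-likelihood, irradiation as covariate, Benjamini-Hochberg adjustment) could be made for those 25 genes. It used 2 libraries of each state and had 2 residual degrees of freedom. The level rose in 22 of the 25 and fell in 0, with a median log2 change of 2.23, where 23.3% of 11574 genes rose and 24.3% fell. Both M1 libraries lay above the other 4 in 22 of these 25 genes (88.0%), and in 28.8% of 11912 genes with 10 or more counts in 1 of the 4. The 3 without that separation were Hist1h1e, Hist1h4k and Hist2h2be.

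**Figure D2:**
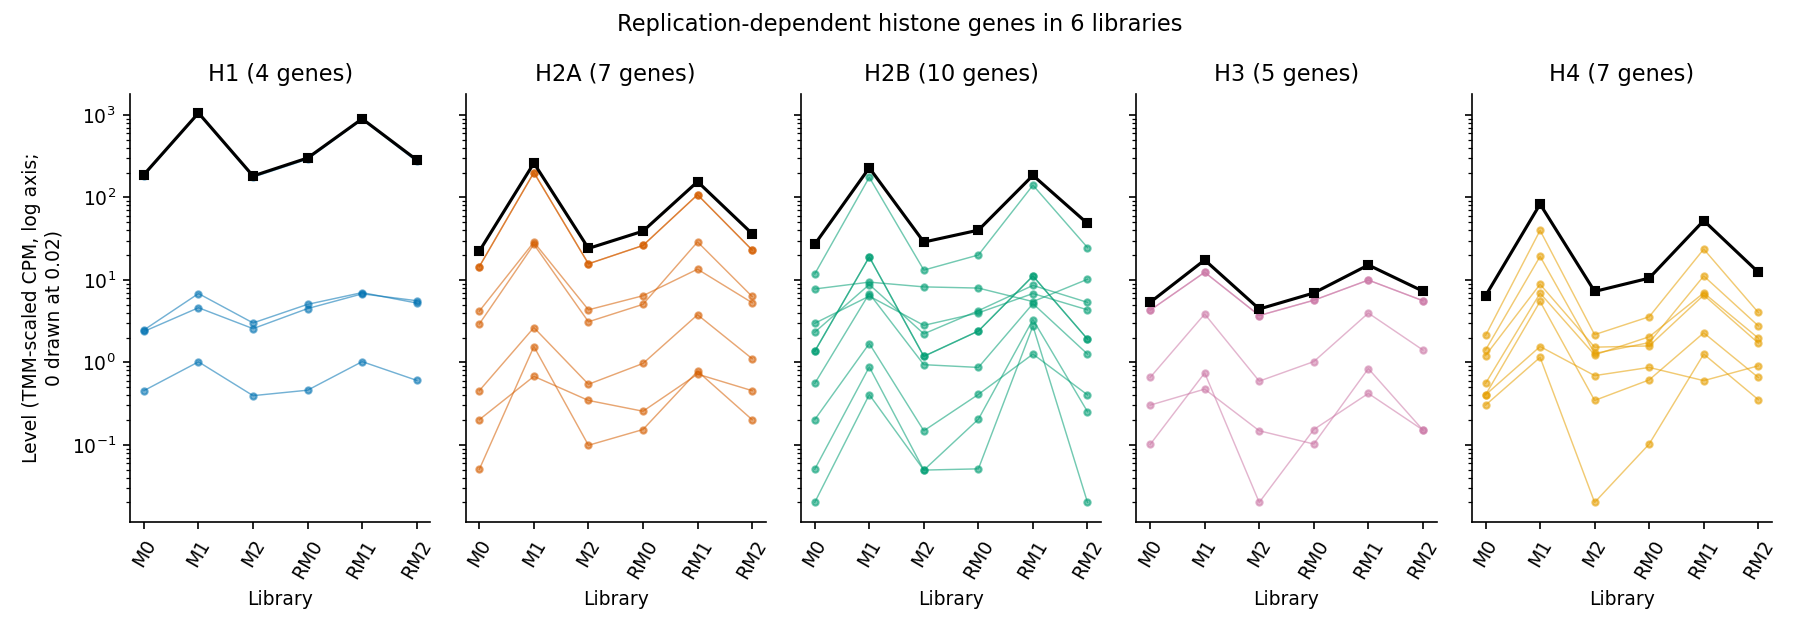
Level of each gene in TMM-scaled CPM (vertical log axis) in the 6 libraries, 1 panel per histone class. Coloured lines join the values of 1 gene, black squares are the class sum with identical rows counted once, and levels of 0 are drawn at 0.02; nearly all lines peak in M1 and RM1, and the line of Hist1h1c lies under the squares of the H1 panel.

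Among the H1 genes, which encode linker histones, Hist1h1c had by far the most counts. It had 3657, 15486 and 3578 counts in M0, M1 and M2 and 5709, 14770 and 5439 in their irradiated counterparts. These were 63.4% (M1) to 73.5% (M0) of all histone counts. Per kilobase of listed span its level in M0 was 254 CPM, and that of Hist2h2aa1 was 26.1. Hist1h1c was 5.68-fold higher in M1 than in M0 (log2 2.51, 2.45 to 2.56) and rose in the M1 test (log2 2.08, adjusted p = 3e-05, edgeR). Leaving it out raised the log2 ratio of the summed level in M1 against M0 to 3.18. The other H1 genes differed less. Hist1h1d had 49, 101, 61, 99, 117 and 104 counts (here and below in the order M0, M1, M2, RM0, RM1, RM2), and Hist1h1e had 47, 68, 52, 88, 113 and 111. In both genes RM0, RM1 and RM2 exceeded M0 and M2. Both rose in the M1 test, by 0.94 (adjusted p = 0.0151, edgeR) and 0.76 (adjusted p = 0.0259, edgeR) on the log2 scale. Hist1h1b had between 8 and 17 counts per library and did not pass (log2 1.14, adjusted p = 0.0614, edgeR).

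The core histone H2A genes were led by Hist2h2aa1 and Hist2h2aa2, 2 overlapping entries with the same counts, so reads of one cannot be told from those of the other. Each had 288, 2970 and 318 counts in M0, M1 and M2 and 513, 1800 and 458 in their irradiated counterparts. M1 exceeded every other library, and RM1 exceeded the other 4. In M1 against M0 it was higher by 3.78 on the log2 scale (3.62 to 3.97). Hist3h2a had 83, 425, 88, 126, 225 and 105 counts, with a log2 fold change of 2.75 (2.44 to 3.14). Hist2h2ac had 58, 399, 63, 99, 482 and 125 counts, with a log2 fold change of 3.16 (2.81 to 3.63). All 3 rose in the M1 test, by 2.95, 1.95 and 2.85 on the log2 scale. Hist2h2ac differed from the other leading H2A genes in that RM1 was its highest library. Its interval in RM1 against M1 included 0 (log2 0.10, -0.10 to 0.29).

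The H2B genes spread from 0.27 to 3.89 on the log2 scale in M1 against M0, the widest range of the 5 classes. Hist1h2bc had 234, 2599 and 267 counts in M0, M1 and M2 and 393, 2351 and 490 in their irradiated counterparts, and it was higher in M1 than in M0 by 3.89 on the log2 scale (3.70 to 4.10). The overlapping entries Hist1h2bq and Hist1h2br, with identical counts of 27, 281, 24, 47, 186 and 38, had a log2 fold change of 3.70. Hist1h2be had 46, 130, 45, 83, 143 and 106 counts, with a log2 fold change of 1.87 (1.43 to 2.44). In contrast, Hist2h2be had 154, 139 and 167 counts in M0, M1 and M2 and 156, 91 and 202 in their irradiated counterparts. Its M1 library was within the range of the other conditions and its RM1 library was the lowest of all. Its log2 change in the M1 test was -0.10 (adjusted p = 0.77, edgeR).

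For H3, Hist2h3c1 and Hist2h3c2 shared identical counts of 85, 183 and 75 in M0, M1 and M2 and 111, 166 and 111 in their irradiated counterparts, and rose in the M1 test by 1.18 on the log2 scale (adjusted p = 0.00256, edgeR). Hist1h3d had 13, 57, 12, 20, 66 and 28 counts and rose by 2.23 (adjusted p = 0.000666, edgeR). Hist1h3a and Hist1h3e had no more than 14 counts in any library, which gives wide intervals. For H4, Hist1h4i had 42, 590 and 44 counts in M0, M1 and M2 and 70, 394 and 80 in their irradiated counterparts. Its log2 fold change in M1 against M0, 4.17 (3.78 to 4.72), was the highest of the 33 genes in this pair. Hist1h4n had 28, 285, 26, 34, 186 and 55 counts, and Hist2h4 had 24, 131, 31, 31, 109 and 34. All 3 rose in the M1 test, by 3.48, 3.26 and 2.45 on the log2 scale. Hist1h4k, with 8, 23, 14, 17, 10 and 18 counts, did not pass (log2 0.73, adjusted p = 0.305, edgeR).

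Irradiation of M0 and M2 cells was examined next. In both states the histone level was moderately higher in the irradiated library, and this was seen in every class. The summed level was 1.59-fold higher in RM0 than in M0 (log2 ratio 0.67, 0.62 to 0.72) and 1.58-fold higher in RM2 than in M2 (0.66, 0.61 to 0.71). The class ratios in RM0 against M0 ran from 0.38 for H3, whose interval began just above 0 and reached 0.76, to 0.81 (0.64 to 0.98) for H2A. In RM2 against M2 they ran from 0.60 (0.43 to 0.76) for H2A to 0.77 (0.47 to 1.08) for H4. The order of the classes was thus not the same in the 2 states. Without Hist1h1c the H1 ratio was 0.92 (0.57 to 1.27) in RM0 and 0.94 (0.62 to 1.27) in RM2. Both lay above every other class, with overlapping intervals. Scaled by library totals, the H3 interval in RM0 against M0 included 0 (0.33, -0.05 to 0.71). Few single genes reached 2-fold. Of 24 genes with enough counts, 2 were at least 2-fold higher in RM0 than in M0 (8.33%) and 0 lower, against 0.719% of all genes higher and 0.821% lower. Of 25, 4 were higher in RM2 than in M2 (16.0%) and 0 lower, against 1.03% and 0.932%. The medians over the 33 genes were 0.66 and 0.64 on the log2 scale.

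The genes that reached 2-fold in RM0 were Hist1h4h and Hist1h1d. Hist1h4h had 11 counts in M0 and 40 in RM0 (log2 1.70, 0.89 to 2.99), and Hist1h1d had 49 and 99 (1.00, 0.52 to 1.56). Those in RM2 were Hist1h2be with 45 counts in M2 and 106 in RM2 (1.23, 0.75 to 1.80), Hist1h3d with 12 and 28 (1.12, 0.23 to 2.37), Hist1h1e with 52 and 111 (1.09, 0.64 to 1.63) and Hist1h4n with 26 and 55 (1.05, 0.42 to 1.84). Hist1h1c, which had the depth for a narrow interval, was higher by 0.66 (0.60 to 0.72) in RM0 and 0.64 (0.57 to 0.70) in RM2. Hist2h2be was closer to its controls, at 0.04 (-0.29 to 0.37) in RM0 and 0.30 (0.0035 to 0.61) in RM2. RM0 and RM2 both lay above M0 and M2 in 27 of the 33 genes (81.8%) and in 15.3% of 12079 genes.

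In M1 cells the direction was the other way. The summed level in RM1 was 0.793 times that in M1 (log2 ratio -0.33, -0.36 to -0.31). H2A was lower by the most at -0.75 (-0.82 to -0.68), followed by H4 at -0.67 (-0.79 to -0.54). Then came H2B at -0.30 (-0.38 to -0.23) and H1 at -0.23 (-0.27 to -0.20). The interval for H3 included 0 (-0.20, -0.46 to 0.05). Scaled by library totals, the values were -0.61 for H2A, -0.52 for H4, -0.16 for H2B and -0.09 for H1. Of the 25 genes with 10 or more counts outside M1 and RM1, 3 were at least 2-fold lower and 0 higher, and their median was -0.32. Among all 33 the counts were 3 lower (9.09%) and 2 higher (6.06%), against 2.25% and 3.08% of all genes. With a trend in GC content and length removed they became 1 lower and 3 higher, so the balance of 2-fold calls rests on that choice. The lower ones were Hist1h4k with 23 counts in M1 and 10 in RM1, Hist1h4m with 81 and 38, and Hist3h2a with 425 and 225. The higher ones passed the threshold of 10 only in M1 or RM1. They were the H2B genes Hist1h2bj with 13 and 55 counts (log2 1.79, 1.02 to 2.90), and Hist1h2bk with 6 and 46 (2.48, 1.53 to 4.28). These 2 genes had at most 5 counts in each of the other 4 libraries. Hist1h2bj and Hist1h2bk share 40.1% and 70.8% of their 100-base windows with other genes. The lower genes Hist1h4k, Hist1h4m and Hist3h2a share 64.3%, 88.1% and 29.8%. Reads counted in the higher and in the lower genes are thus uncertain. Without Hist1h1c the H1 sum was not lower, at 0.25 (-0.03 to 0.53).

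An irradiation effect common to the 3 states was tested with the states as replicates and polarization as covariate (edgeR quasi-likelihood). None of the 25 tested histone genes passed an adjusted p of 0.05, and 5 had an unadjusted p under 0.05. DESeq2 also called 0, with 5 unadjusted. Across all genes 0.346% rose and 0.13% fell. The lowest adjusted p was that of Hist1h1e (0.103, edgeR, log2 0.86). With the M1 and RM1 libraries left out, 10 of the 25 rose (40.0%), against 2.40% of all genes (2.27% fell), and 25 of 25 had a positive log2 change. They included Hist1h1c (0.65, adjusted p = 4.2e-09, edgeR), Hist1h2bc (0.84, adjusted p = 7.78e-09, edgeR) and Hist2h2aa1 (0.70, adjusted p = 1.01e-06, edgeR). That fit rests on 2 libraries of each kind. With M0 and RM0 left out instead, or M2 and RM2, 0 of 25 passed and 13 had a positive log2 change in each. Of all 11574 genes, 409 rose and 259 fell in the first of these fits, and 41 and 37 in the second. The difference between the states was then tested with 1 further term, for irradiated M1 cells. The irradiation effect was lower in M1 than in the other states in 13 of 25 histone genes and higher in 0 (edgeR). The median difference was -0.96 on the log2 scale, and the effect was lower in 4.61% and higher in 4.05% of all genes. Both rows of identical pairs are counted here, and the 13 hold Hist2h2aa1 with Hist2h2aa2 and Hist1h2bq with Hist1h2br. The differences were -1.60 for Hist2h2aa1 (adjusted p = 5.35e-15, edgeR), -1.16 for Hist1h2bc (adjusted p = 1.49e-07, edgeR), -1.58 for Hist1h4i (adjusted p = 1.56e-06, edgeR) and -0.89 for Hist1h1c (adjusted p = 6.97e-06, edgeR). DESeq2 called 4 of the 25, all lower. This fit has 1 residual degree of freedom, which comes from M0 and M2 cells alone, and the reversal had been seen before the test was made.

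The IL-4 libraries lay close to the unpolarized ones. The summed level in M2 was 0.985 times that in M0 (log2 ratio -0.02, -0.08 to 0.03), and that in RM2 was 0.98 times that in RM0 (-0.03, -0.07 to 0.02). Of the classes, H2B was somewhat higher in RM2 than in RM0 (0.27, 0.13 to 0.41) and H1 slightly lower (-0.078, -0.13 to -0.025). That H1 value rests on Hist1h1c, without which it was 0.19 (-0.09 to 0.48). Scaled by library totals, the interval for all H1 genes included 0 (-0.02, -0.07 to 0.03). Of the 23 genes with 10 or more counts in M0 or M2, 1 was 2-fold higher in M2, Hist1h4h with 11 and 25 counts, and 0 were lower, where 0.995% and 0.442% of all genes were. Of 25 such genes in RM2 against RM0, 0 were higher and 0 lower, where 1.66% and 0.953% of all genes were. In the M2 test (edgeR) 0 of 25 passed, 0 had an unadjusted p under 0.05 and DESeq2 called 0, with 0.156% of all genes higher and 0.0346% lower.

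The divergent pairs allow 2 neighbouring genes with shared upstream sequence to be compared. Hist2h2ac and Hist2h2be start 240 bases apart on opposite strands of chromosome 3, across the stretch printed above. The ratio of Hist2h2ac to Hist2h2be counts was 0.377, 2.87 and 0.377 in M0, M1 and M2 and 0.635, 5.30 and 0.619 in their irradiated counterparts. It was thus highest in the M1 libraries, in which Hist2h2ac was up and Hist2h2be was not. Hist1h2ac and Hist1h2bc, 239 bases apart, had a ratio between 0.00427 and 0.00885 in the 6 libraries, with 1 to 23 counts of Hist1h2ac. Hist1h2ae and Hist1h2bg, 179 bases apart, had a ratio of 0.099 in M1 and 0.14 in RM1, and between 0.294 and 0.368 elsewhere, with Hist1h2ae at 4 to 12 counts. These pairs were picked from positions with both genes measured, and the contrast in the first of them was seen before it was singled out, so no test is given.

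**Figure D3:**
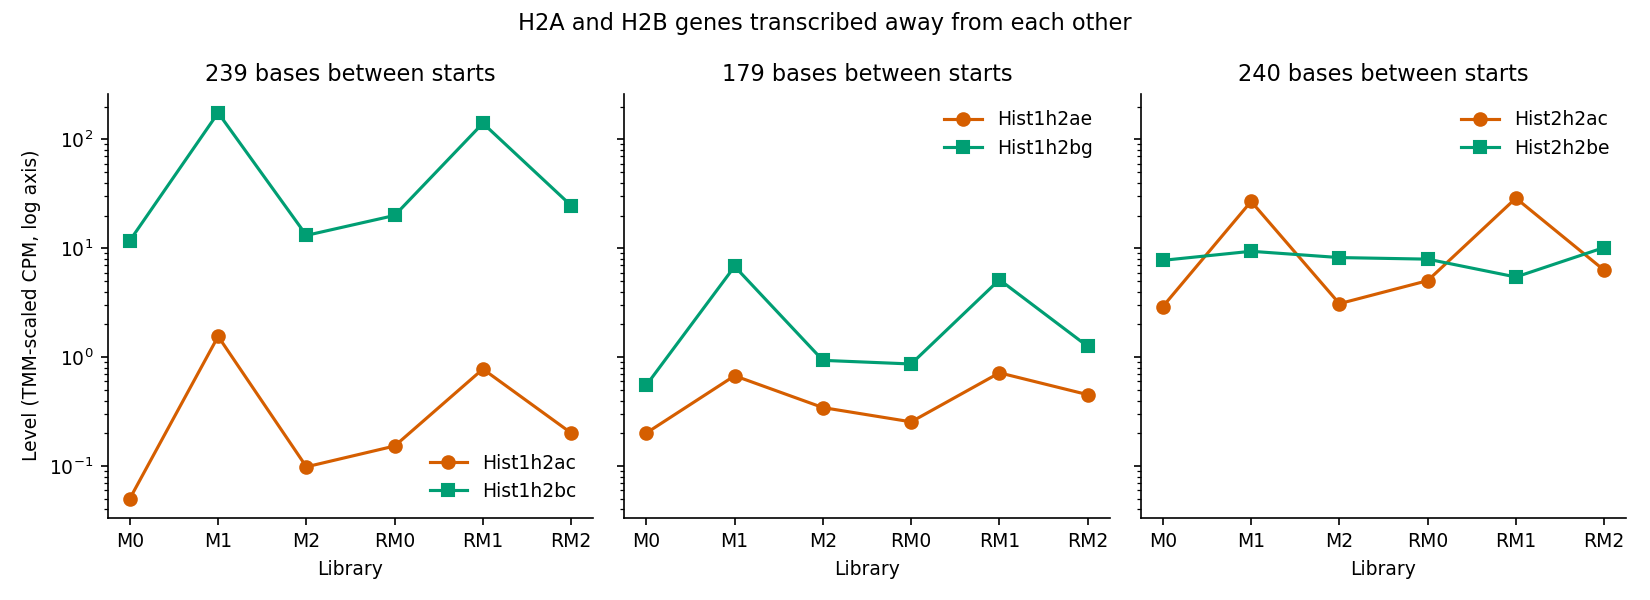
Level in TMM-scaled CPM (vertical log axis, shared) of the 3 divergent H2A (circles) and H2B (squares) gene pairs in the 6 libraries, 1 pair per panel with the distance between start sites above it. Lines join values of 1 gene; Hist2h2ac peaks in M1 and RM1, whereas Hist2h2be is at its lowest in RM1.

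Genes around the histone family were counted from lists of known roles. Replacement histones are mostly made throughout the cell cycle from polyadenylated transcripts, though not every gene of the list follows this. Of 10 measured, 4 rose in the M1 test and 2 fell, where 23.3% and 24.3% of all genes did. In the irradiation test (edgeR) 0 of the 10 passed, where 0.346% of all genes rose and 0.13% fell. With the M1 and RM1 libraries left out, H2afz alone passed and fell by 0.31 on the log2 scale (adjusted p = 0.0369, edgeR). Of all genes 2.27% fell and 2.40% rose in that fit. H3f3a, which encodes H3.3, had 4559, 8789, 5834, 5038, 9165 and 5536 counts in that order and rose by 1.23 in the M1 test. H3f3b had 13601, 17675, 14057, 12718, 13844 and 14390 counts and rose by 0.59, and H1f0, a linker histone of resting cells, rose by 0.55. H2afz had 2599, 2131, 2844, 2158, 1956 and 2156 counts and H2afx 413, 355, 425, 369, 277 and 321, and neither passed in the M1 test (log2 0.11 and 0.02). The medians of the list in RM0 against M0 and RM2 against M2 were -0.07 and -0.27, with 0 of 10 called at 2-fold in either. Of all genes, 0.719% and 1.03% were 2-fold higher in these pairs, and 0.821% and 0.932% lower.

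Among 14 measured genes of histone transcription and 3′ end formation, 4 rose and 4 fell in the M1 test, close to the shares over all genes of 23.3% and 24.3%. Slbp had 663, 242 and 648 counts in M0, M1 and M2 and 428, 319 and 582 in their irradiated counterparts, and fell by 0.61 on the log2 scale (adjusted p = 0.0176, edgeR). Its M1 and RM1 libraries were the lowest. Npat had 467, 337, 533, 476, 495 and 633 counts and did not pass (log2 0.12, adjusted p = 0.486, edgeR). Lsm11, part of the U7 particle that cuts histone transcripts after the stem-loop, rose by 1.39 (adjusted p = 0.000118, edgeR) with 256, 632, 261, 287, 504 and 247 counts. In the irradiation test (edgeR) 0 of 14 passed, where 0.346% of all genes rose and 0.13% fell. With the M1 and RM1 libraries left out 1 passed, Slbp, which fell by 0.36 on the log2 scale (adjusted p = 0.0316, edgeR). In that fit 2.27% of all genes fell and 2.40% rose. None of the 14 was 2-fold changed in RM0, RM1 or RM2 against its control. Of all genes, 0.719%, 3.08% and 1.03% were higher in these pairs, and 0.821%, 2.25% and 0.932% lower. All 3 genes of general polyadenylation were measured, and none was 2-fold changed in any pair of libraries, but Pabpc1, which encodes a poly(A) binding protein, rose in the M1 test by 0.55 on the log2 scale (adjusted p = 0.0166, edgeR).

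Of 22 chaperone and assembly genes, 3 rose and 9 fell in the M1 test, against 23.3% and 24.3% of all genes. None passed the irradiation test, where 0.346% of all genes rose and 0.13% fell. With the M1 and RM1 libraries left out, 5 of the 22 fell on irradiation, against 2.27% of all genes, and these were Asf1b, Chaf1a, Chaf1b, Hat1 and Nasp. Asf1b, which hands H3 and H4 to the assembly factors, had 332, 138, 365, 189, 91 and 238 counts and fell by 0.83 (adjusted p = 0.00252, edgeR) in the M1 test. Tonsl, with 69 counts in M1 and 38 in RM1, was 2-fold lower in RM1, as were 2.25% of all genes, and no other of the 22 was 2-fold changed by irradiation in any state.

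The S phase genes moved apart from the histone genes in M1 cells. Of 42, 17 were at least 2-fold lower in M1 than in M0 and 0 higher, against 13.3% and 9.37% of all genes. In the M1 test 26 fell and 2 rose (edgeR), against 24.3% and 23.3%. Mcm2, a subunit of the replicative helicase, had 1944, 609 and 1998 counts in M0, M1 and M2 and 1267, 474 and 1248 in their irradiated counterparts. Pcna, the sliding clamp of the replication fork, had 2249, 1229, 2690, 1605, 1112 and 2185 counts. For Mcm2 each irradiated library was below its control and M1 was below M0, while the histone sum was higher in M1, RM0 and RM2. For irradiated against non-irradiated cells, the median of the list on the log2 scale was -0.50 in M0, -0.34 in M1 and -0.49 in M2. In the irradiation test (edgeR) 5 of 42 fell and 0 rose, against 0.13% and 0.346% of all genes. The 5 were Mcm2, Mcm3, Mcm5, Mcm6 and Rpa2. Scaled by library totals, that test called 3 genes higher and 0 lower, so the 5 were not called. With the M1 and RM1 libraries left out 30 of 42 fell and 0 rose, against 2.27% and 2.40%. The log2 fold change of Mcm5, another helicase subunit, was -0.73, -0.97 and -0.90 in M0, M1 and M2 cells. In single pairs, Gins1 and Prim1 were 2-fold lower in RM0 than in M0, as were 0.821% of all genes. Ccne2, with 9 counts in M1 and 31 in RM1, was 2-fold higher in RM1, as were 3.08% of all genes. No test compared the 2 lists directly. In bulk RNA, fewer cells in S phase and less transcript per cell cannot be told apart.

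**Figure D4:**
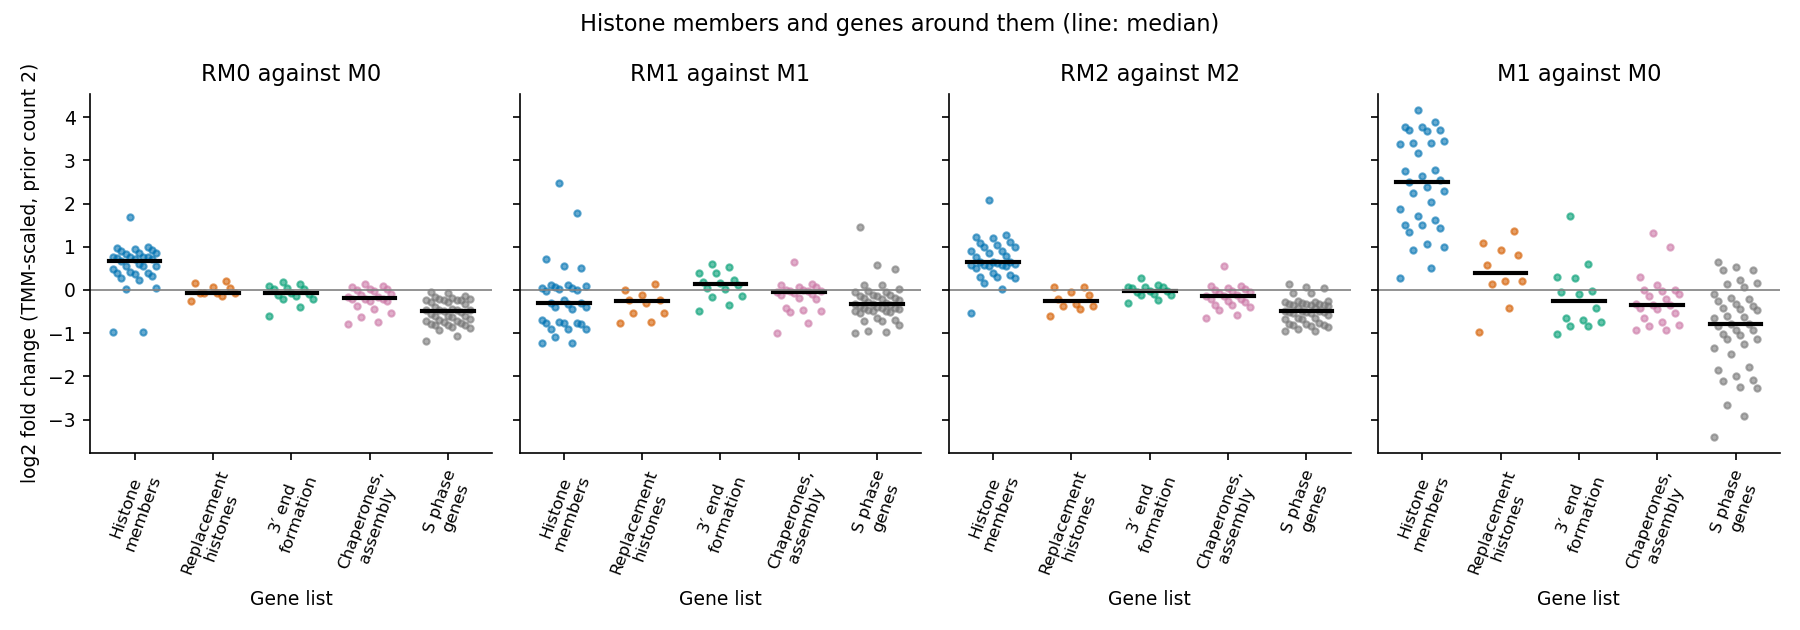
Log2 fold change (vertical axis; TMM scaling, prior count 2) of single genes in 4 pairs of libraries for the 33 histone genes and 4 lists of genes around them, with the median as a black line. Histone genes sit above 0 in RM0, RM2 and M1 with medians of 0.66, 0.64 and 2.51, where the S phase medians are -0.50, -0.49 and -0.79; genes of the 4 lists with under 10 counts in both libraries are left out.

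Outside the family, the 5 genes of 8460 with at least 100 counts in every library whose log2 level was most like the summed histone level over the 6 libraries were Rasgef1b, Ppp6r2, Rab5b, Ncoa3 and Nckipsd, with Pearson's r between 0.996 and 0.997. These values describe 6 libraries, of which 2 set most of the range. The sizes were far apart: Rasgef1b differed by 0.95 and Rab5b by 0.64 on the log2 scale between M1 and M0, against 2.72 for the histone sum.

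Much of the family shares stretches of sequence with other genes. Of the 33 genes 23 share more than 20% of their 100-base windows with another gene. Hist2h2bb (100%) and Hist3h2a (29.8%) share windows only with entries outside the family. How reads fitting several genes were counted is not given in the sources used here. The 10 genes with less sharing included Hist1h1c, Hist2h2ac, Hist2h2be, Hist1h4i and Hist2h4. Sharing was taken over the longest GENCODE transcript, which for some genes is longer than the span listed in the deposited table. It has 727 against 403 bases for Hist1h4i, 2482 against 487 for Hist1h2ac and 1679 against 522 for Hist1h2bh. Sharing within the listed span was not computed and may be above 20% for such genes. Of these 10, Hist1h2ac and Hist1h2bh passed the threshold of 10 only in M1 or RM1. Of the other 8, 6 were at least 2-fold higher in M1 than in M0, against 9.37% of all genes, and 0 were 2-fold changed in RM1 against M1, where 3.08% of all genes were higher and 2.25% lower.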

How the data were processed

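RNA was sequenced from 6 conditions of RAW264.7 cells. The authors deposited read counts per gene for 24062 RefSeq genes in build mm10, and the submitters' processing notes name Trimmomatic 0.36, HISAT2 2.2.1 and HTSeq 0.11.3. Strand handling was not given in the sources used here. Levels were scaled by TMM factors (edgeR 4.0.16, R 4.3.3) from genes with 10 or more counts in at least 3 libraries, which ran from 0.8004 (M1) to 1.134 (M2). Pairs of libraries were compared by log2 fold change with a prior count of 2, a threshold of 2-fold, and 95% Clopper-Pearson intervals. Quasi-likelihood tests with an additive model of state and irradiation covered 11574 genes, and a term for irradiated M1 cells was added after seeing the data. DESeq2 1.42.0 was an alternative. Named genes were the 4 of each class with most counts, those past 2-fold or the adjusted threshold in an irradiation comparison, and those near 10 counts. Members and lists were chosen with earlier results of these data known. Rows with identical counts and overlapping positions were counted once in sums, but both were kept in tests and in counts of genes. The test script was checked on simulated counts.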

Additional observations from a re-analysis of the deposited data

Results flagged for a closer look

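The summed histone level was lower in RM1 than in M1 (log2 ratio -0.33), while RM0 and RM2 were higher than M0 and M2 (0.67 and 0.66). The same opposite directions were found for H1 (-0.23), H2A (-0.75), H2B (-0.30) and H4 (-0.67), with 95% counting intervals on opposite sides of 0. Without Hist1h1c the H1 sum was not lower in RM1 (0.25). What drew attention was this reversal between states. The difference in the sums was not tested. In single genes, the irradiation effect was lower in M1 than in the other states in 13 of 25 (edgeR, 1 residual degree of freedom) and higher in 0, against 4.61% and 4.05% of all genes, and DESeq2 called 4. The difference on the log2 scale was -0.89 for Hist1h1c, -1.60 for Hist2h2aa1 and Hist2h2aa2, -0.81 for Hist2h2ac and -1.55 for Hist3h2a. Among H2B genes it was -1.16 for Hist1h2bc, -1.11 for Hist1h2be, -1.53 for Hist1h2bq and Hist1h2br and -0.96 for Hist2h2be, and among H4 genes -1.58 for Hist1h4i, -2.01 for Hist1h4m and -1.52 for Hist1h4n.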

How the results depend on the processing

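Scaling by library totals moved the median of all genes by -0.43 in M1 against M0, -0.25 in RM1 against RM0 and 0.14 in RM1 against M1 on the log2 scale, and it gave 601 genes at least 2-fold higher and 2984 lower in M1 against M0, where TMM gave 1104 and 1569. Under it the histone sum stood at 2.28 in M1 against M0, 1.47 in RM1 against RM0, -0.19 in RM1 against M1, 0.61 in RM2 against M2, 0.038 in M2 against M0 and 0.029 in RM2 against RM0, and 1 histone gene was 2-fold higher in RM0. Without Hist1h1c the sum was 3.18, 1.99, -0.51, 0.72, 0.087 and 0.12 in these pairs. Without the 3 genes of most counts it was 2.50, 1.53 and -0.38 in the first 3, 0.59 in RM0 against M0, 0.057 in M2 against M0 and 0.17 in RM2 against RM0. Without genes sharing over 20% of windows it was 2.50, 1.60 and -0.25 in the first 3, and with both rows of identical pairs it was 2.80 in M1 against M0 and -0.39 in RM1 against M1. The sum kept its sign in the M1 and irradiation pairs under each of these.

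Counts at 2-fold changed more. Without the 23 genes sharing windows, 8 genes were called in M1 against M0, 6 in RM1 against RM0, 1 in RM0, 1 in RM2 and 0 in RM1 against their controls and 0 in M2 against M0, among 10 genes. In the first 2 pairs these include Hist1h2ac and Hist1h2bh, which passed the threshold only in M1 or RM1, and without them 6 and 4 of 8 were called. A 4-fold threshold left 13 in RM1 against RM0, 1 in RM1 against M1, Hist1h2bk, which was higher, and 0 in RM0, RM2 and M2 against theirs. An exact test with an assumed coefficient of variation of 0.2 called 1 in RM1 against M1, again Hist1h2bk, and 0 in RM0 against M0, RM2 against M2 and M2 against M0. A prior count of 0.25 gave 4 in RM0 against M0, removing a trend in GC content and length gave 1 in RM2 against RM0, and 3 were called in RM1 against M1 among genes that passed the threshold outside M1 and RM1. Removing that trend gave 3 higher and 1 lower in RM1 against M1, where 2 and 3 were called without it, and took Hist1h4k to -0.66 and Hist1h4m to -0.72.

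In the irradiation test 55 genes were called. The count was 114 with DESeq2, 3 with library totals (all higher), 156 with no filter on low counts and 26 with the trend removed. It was 0 with no polarization term, 668 when M0 and RM0 were left out and 541 when M1 and RM1 were. Of the histone genes 10 were called without M1 and RM1 and 1 with no filter, and the M1 test called between 19 and 21 of 25 under alternatives with the filter and 27 of 33 with no filter, which adds the 8 genes that passed only in M1 or RM1. The test of the difference in M1 called 469 genes higher and 534 lower, and 1454 and 232 with library totals (1686 in all). It called 166 genes with DESeq2 and 400 with no filter on low counts, and 4 histone genes with DESeq2 where edgeR called 13. The choices added after seeing the data were the test of the difference in M1 with its alternatives and those on Hist1h1c, on identical pairs and on genes passing outside M1 and RM1. The labels give no replicate numbers to pair, and the irradiation test matched libraries by polarization state except where that term was left out. The cause of these changes was not tested, except that fewer genes or libraries enter where some are left out.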
